A study of Talaromyces pinophilus with 6 samples.

Results

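The genes described here are the carbohydrate-active enzyme (CAZy) genes of *Talaromyces pinophilus* that the study listed as differing between 2 strains, apart from 15 that were left out, among them amylase, α-glucosidase and β-glucosidase genes, a chitinase gene and a chitosanase gene. They were found by taking every row of that list with a CAZy family, in the 1998 rows at hand, which gave 122 genes before the omission. The deposited tables name 11632 genes in all. Because the list was drawn up on the same 2 strains, with a fold and a p threshold, the fold changes below are what selected the genes. They are given as a description without a test, and nothing is inferred from how many moved. After the omission 101 of the set had values in the deposited tables, and 6 further members (*TP01346*, *TP04413*, *TP05386*, *TP02038*, *TP00865* and *TP02518*) were not analysed here.

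Mycelium of both strains was harvested after 12 h on 1% (w/v) soluble corn starch, to which it had been moved from glucose, and 3 libraries were sequenced per strain. The parental strain Δ*TpKu70* is strain 1–95 with *TpKu70* knocked out, a gene of DNA end joining whose loss eases targeted deletion. The mutant Δ*TP05746* carries that deletion too, together with a deletion of *TP05746*, which encodes a Zn2Cys6 transcription factor. Nothing in the sources used here says whether the 3 libraries of a strain were separate cultures, so their spread may be technical in part. RNA came from whole mycelium, in which fewer cells of a type and less RNA per cell cannot be told apart.

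CAZy sorts the enzymes that build, break or modify sugar chains into families by sequence. Glycoside hydrolases (GH) and polysaccharide lyases (PL) cut glycosidic bonds, glycosyltransferases (GT) make them, and carbohydrate esterases (CE) remove acetyl and other ester groups. Auxiliary activities (AA) are redox enzymes that act with these, and carbohydrate-binding modules (CBM) hold an enzyme to its substrate. A filamentous fungus secretes some of them to digest plant cell walls and uses others to remodel its own wall of glucans and chitin, to glycosylate proteins and to store glycogen and trehalose. The gene set held 49 GH, 21 GT, 18 CE, 15 AA, 2 PL and 2 CBM genes.

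The deleted gene was at 0 in all 3 Δ*TP05746* libraries and had 135, 42 and 28 counts in Δ*TpKu70*, at least 33.8-fold higher there (19.98-fold with Δ*TpKu70* replicate 1 left out). Such lower bounds set a library at 0 to 3 counts, and they allow for counting error alone. Library totals ran from 4091718 to 4696455 expected counts, the number of fragments assigned to genes. TMM factors put the libraries on a common scale by the bulk of genes. Levels are given as CPM, the count relative to the library's size, scaled with TMM factors, in the order of replicates 1, 2 and 3, and as FPKM (fragments per gene length and library size) where genes are compared with each other, since only FPKM is per length. FPKM carries no TMM factors, so its changes between the strains differ from those of CPM. Over all genes tested the median log2 ratio of mean FPKM was 0.74, against a median log2 fold change of 0.03 with TMM factors. Across genes, Δ*TpKu70* replicate 1 stood nearer to the Δ*TP05746* libraries (correlation 0.712 to 0.733) than did the other Δ*TpKu70* libraries (0.591 to 0.641). It lay between those 2 and all Δ*TP05746* libraries in 47 of the 83 set members tested (56.6%), against 37.1% of all genes tested. Among genes past the threshold, which the members mostly were, it did so in 60.0% of members and 61.8% of all genes.

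The 8522 genes that reached an FPKM of 1 in 3 or more libraries were tested with edgeR's quasi-likelihood test, and 1550 (18.2%) were higher and 1749 (20.5%) lower in Δ*TP05746*. The threshold was 0.05 for the adjusted p together with a 2-fold difference. Of the 101 members with values, 83 entered that test, and 32 were higher, 43 lower and 8 not past the threshold, with a median log2 fold change of −1.32 against 0.03 over all genes tested. The libraries of the strains did not overlap in 34 members that were higher and 44 that were lower, where 62.0% of all genes tested had no overlap. When library totals replaced the TMM factors, the median of all genes tested moved to 0.85, and 34 members were then higher and 27 lower. None of the 75 members past the threshold changed sign in those of the 17 alternatives that included them. A filter at an FPKM of 5 kept only 53 members, and genes without decimals only 72. The test against the fold minimum kept the main fold changes, so it could not change a sign. The shift with library totals was short of the log2 minimum of 1, so a reversal was hardly possible there either. Without Δ*TpKu70* replicate 1, 33 members were higher and 46 lower.

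**Figure D1:**
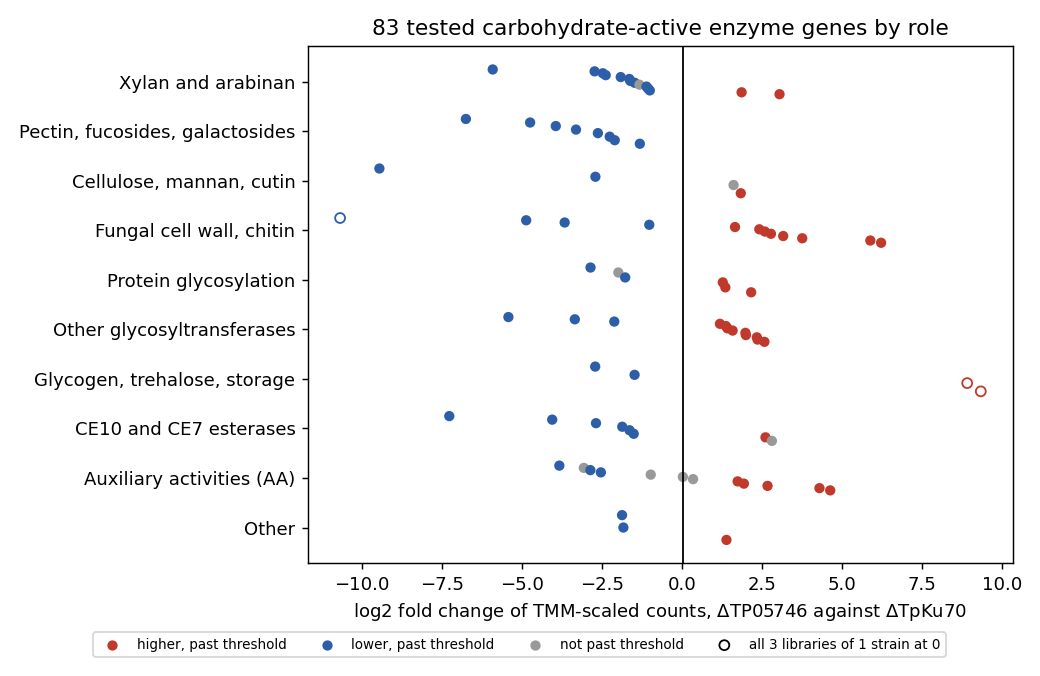
Log2 fold change (Δ*TP05746* against Δ*TpKu70*) of the 83 tested genes, 1 point per gene, grouped by role; the vertical line is the median of all genes tested (0.03). All 8 tested genes of the pectin, fucoside and galactoside group lie to the left and 8 of 12 fungal cell wall genes to the right; open points had all 3 libraries of 1 strain at 0, so their fitted value is no measure of size.

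By class, most GH and CE genes were lower and most GT genes higher in Δ*TP05746*. Among 38 tested GH genes, 11 were higher and 24 lower (median −1.55), and among 14 CE genes 3 were higher and 10 lower (median −2.28). Among 15 GT genes, 11 were higher and 4 lower (median 1.42), and among 12 AA genes 5 were higher and 3 lower (median 0.19). With library totals the counts were 12 and 14 for GH, 4 and 7 for CE, 11 and 3 for GT, and 5 and 2 for AA. Of all genes tested, 18.2% were higher and 20.5% lower with TMM factors, whereas library totals gave 3290 higher and 1059 lower of 8522. The role groups below were formed, with earlier results known, from genes that the study had selected on this contrast. Their counts are a description.

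Summed over the members of a class, the level weights the few most abundant genes and need not follow the number that moved. The GH sum was 3586, 5053 and 6473 CPM in Δ*TpKu70* against 2748, 2543 and 2652 in Δ*TP05746*. The CE sum was 850, 1969 and 2979 CPM in Δ*TpKu70* against 184, 158 and 168 in Δ*TP05746*, so every Δ*TP05746* library was below every Δ*TpKu70* library. The GT sum was also lower on this scale, at 1311, 1831 and 1989 CPM against 1284, 1310 and 1309, although most GT genes were higher. Of the library's counts, however, GT genes took 0.115%, 0.131% and 0.132% in Δ*TpKu70* against 0.168%, 0.179% and 0.174% in Δ*TP05746*, the opposite order. The GH share of counts overlapped between the strains (0.314% to 0.431% against 0.347% to 0.360%), and so did the AA share (0.0431% to 0.0968% against 0.0382% to 0.0451%), whereas the CE share did not (0.0744% to 0.198% against 0.0216% to 0.0241%).

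**Figure D2:**
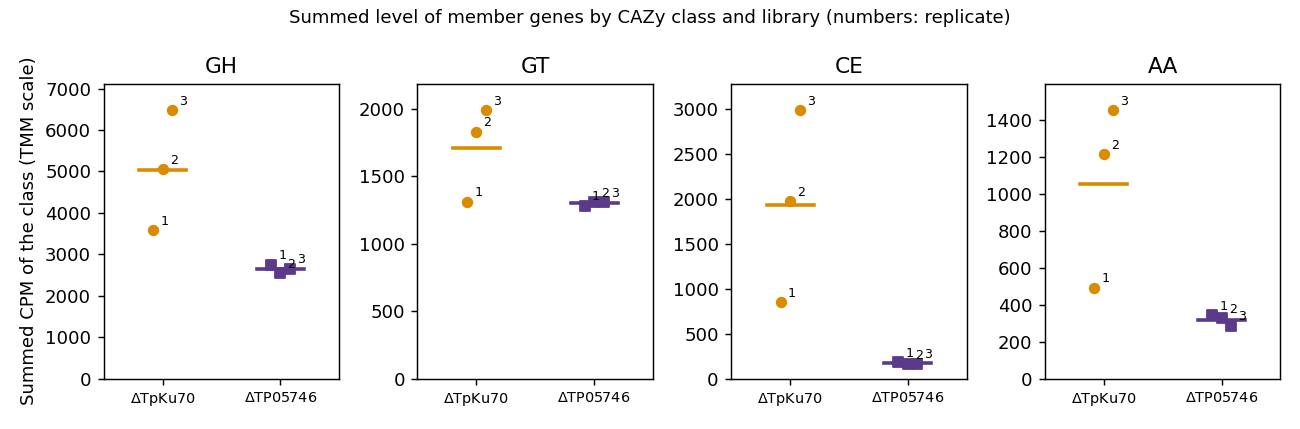
Summed CPM (TMM scale) of the member genes of each of 4 CAZy classes in each library, with the replicate number beside each point and the mean of a strain as a bar; each axis starts at 0. Δ*TpKu70* replicate 1 is the lowest of its strain in all 4 panels, and the CE sum of the Δ*TP05746* libraries stays between 158 and 184.

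Genes for plant cell wall polysaccharides were mostly lower. Pectin is a galacturonic acid polymer with rhamnose-rich stretches that bear arabinan and galactan side chains, and xylan is a xylose chain hung with arabinose, glucuronic acid and acetyl groups. All 8 tested genes of the group for pectin, fucosides and galactosides were lower in Δ*TP05746* (median −2.97), against 20.5% of all genes tested. The gene with the largest decrease was *TP00199*, of family GH2, which holds β-galactosidases and related enzymes. It had 1159, 1031 and 1254 CPM in Δ*TpKu70* against 12.4, 2.09 and 17.4 in Δ*TP05746* (log2 fold change −6.76 with an SE, or standard error, of 0.79), with reads shared with another gene model, which leaves its level uncertain. *TP00306*, an α-L-fucosidase of GH29, had 11.3, 27.1 and 36.9 CPM in Δ*TpKu70* against 0.934, 0.70 and 1.09 in Δ*TP05746* (log2 fold change −4.75, SE 0.56). In neither gene did the libraries of the strains come near each other.

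*TP04933* belongs to CE12, a family of esterases that remove acetyl groups from pectin. Its CPM was 15.3, 5.06 and 5.88 in Δ*TpKu70* against 0.747, 0.175 and 0.725 in Δ*TP05746* (log2 fold change −3.95, SE 0.69, and −3.27 if Δ*TpKu70* replicate 1 is left out). The remaining members of the group fell less: *TP01954*, of the oligogalacturonate lyase family PL22, by 3.31 on the log2 scale, *TP05139* (GH2) by 2.63, and *TP02340*, a β-galactosidase family gene, by 2.1. *TP05718*, an unsaturated rhamnogalacturonyl hydrolase of GH105, which clips the sugar left at the end of cut rhamnogalacturonan, had 40.1, 65.5 and 148 CPM in Δ*TpKu70* against 23.8, 14.6 and 14.4 in Δ*TP05746*, again with shared reads. *TP04936*, a second α-L-fucosidase from GH95, had 21.7, 14.3 and 18.9 CPM against 10.1, 6.65 and 5.26 (log2 fold change −1.32, SE 0.35). Without Δ*TP05746* replicate 3 neither *TP05718* nor *TP04936* was past the threshold, and *TP04936* was not without replicate 3 of Δ*TpKu70* or 2 of Δ*TP05746* either, with log2 fold changes of −2.60 to −1.60 (the last without Δ*TpKu70* replicate 3) and −1.62 to −1.13 over the fits that lacked 1 library. Of these 8 genes, 7 stayed lower with library totals, while *TP04936* was not past the threshold (log2 fold change −0.52).

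Of 14 tested genes in the xylan and arabinan group, 11 were lower, 2 higher and 1 not past the threshold (median −1.55), and 5 were lower and 2 higher with library totals. Among all genes tested, 20.5% were lower and 18.2% higher with TMM factors. *TP02355* and *TP05615* belong to GH127, known for β-L-arabinofuranosidases. *TP02355* had 82.1, 756 and 1146 CPM in Δ*TpKu70* against 20.01, 6.52 and 6.40 in Δ*TP05746* (log2 fold change −5.92, SE 1.1, and −5.29 if Δ*TpKu70* replicate 3 or −6.68 if Δ*TP05746* replicate 1 is left out), and part of its reads were shared with another gene. Replicate 1 of Δ*TpKu70* was far below the other 2 libraries of that strain here, and still above all Δ*TP05746* libraries. *TP05615* had 396, 572 and 711 CPM against 155, 186 and 196 (log2 fold change −1.65, SE 0.27), and the third GH127 gene, *TP01969*, fell by 1.62. With library totals neither *TP05615* (−0.78) nor *TP01969* (−0.77) was past the threshold.

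Most xylosidase and arabinofuranosidase genes were lower too when scaled with TMM factors. *TP00305*, of GH43, a family of β-xylosidases and arabinofuranosidases, had 27.1, 27.1 and 36.6 CPM in Δ*TpKu70* against 5.41, 6.83 and 3.99 in Δ*TP05746* (log2 fold change −2.48, SE 0.31). The other GH43 gene, *TP04245*, annotated as a xylosidase/arabinosidase and sharing reads, fell by 1.91. Among genes of GH62, whose known members are arabinofuranosidases, *TP03986* fell by 1.48 and *TP00283* by 1.01, whereas *TP01905* was higher. *TP01905* was near the floor, with 0.986, 0 and 0 CPM in Δ*TpKu70* against 2.99, 3.50 and 3.26 in Δ*TP05746* (log2 fold change 3.05, SE 0.89). GH39 β-xylosidase family genes *TP00304* and *TP05924* fell by 1.11 and 1.06, and the β-xylosidase gene *TP05314* (GH3) had a log2 fold change of −1.33 that was not past the threshold, or −1.69 and past it without Δ*TpKu70* replicate 1. With library totals *TP00305* (−1.63), *TP04245* (−1.10) and *TP01905* (3.79) stayed past the threshold. The others were not past it: *TP03986* (−0.63), *TP05314* (−0.45), *TP05924* (−0.27), *TP00304* (−0.26) and *TP00283* (−0.16). Calls near the threshold depended on single libraries: *TP01905* and *TP03986* were past it only with both Δ*TpKu70* replicates 2 and 3 and all Δ*TP05746* libraries in the fit (log2 fold changes of 2.54 to 6.91, the last without Δ*TpKu70* replicate 1, and −1.70 to −1.17), as was *TP00304* (−1.34 to −0.93), while *TP05924* was lost without any library but Δ*TpKu70* replicate 2 (−1.29 to −0.78) and *TP00283* without replicate 2 or 3 of Δ*TpKu70* or 1 or 3 of Δ*TP05746* (−1.16 to −0.90).

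GH30 genes were split. This family holds xylanases as well as β-glucanases and glucosylceramidases, so its role cannot be read from the family alone. *TP00718* had 43.4, 63.1 and 75.5 CPM in Δ*TpKu70* against 12.1, 6.83 and 8.34 in Δ*TP05746* (log2 fold change −2.73, SE 0.32). *TP05191* was lower too, with 2.22, 8.03 and 7.19 CPM against 0.747, 1.40 and 1.09 (log2 fold change −2.39, SE 0.58), but not past the threshold without replicate 2 of Δ*TpKu70* or 1 or 3 of Δ*TP05746* (log2 fold changes of −2.80 to −2.06 without 1 library). *TP03237* went the other way, from 84.0, 41.7 and 39.2 CPM to 211, 188 and 202 (log2 fold change 1.86, SE 0.33), with no overlap between the strains, as in 62.0% of all genes tested.

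Several genes for the same substrates lay below the FPKM filter and had no test. *TP02522*, annotated as an acetyl xylan esterase (CE1), had 12.1, 0.595 and 3.27 CPM in Δ*TpKu70* and was at 0 in all Δ*TP05746* libraries, at least 9.80-fold lower, or 3.56-fold with Δ*TpKu70* replicate 1 left out. *TP04108*, an α-L-arabinofuranosidase of GH54 with a CBM42 module, had 1.48, 2.08 and 4.90 CPM and was at 0 in Δ*TP05746*, at least 5.21-fold lower, or 3.29-fold with Δ*TpKu70* replicate 3 left out. The α-glucuronidase family gene *TP03030* (GH115) had 3.94, 6.84 and 4.25 CPM against 2.43, 2.45 and 0.725. *TP03145*, another acetyl xylan esterase gene, had 0.376 CPM in Δ*TP05746* replicate 2 and 0 elsewhere.

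**Figure D3:**
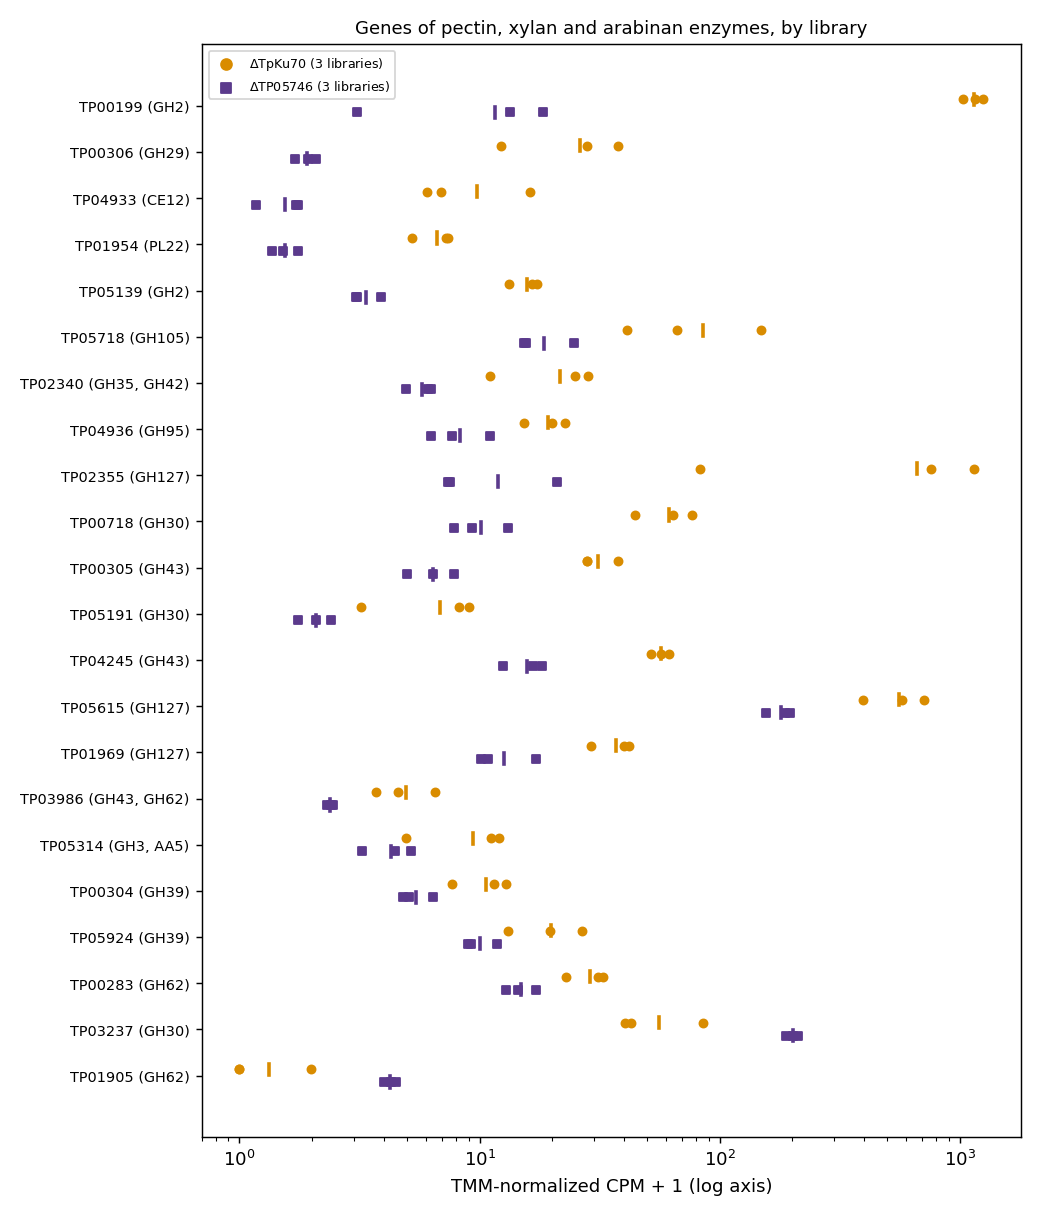
CPM + 1 (TMM scale, log axis) of the 22 tested genes of the pectin, xylan and arabinan groups in each library, with circles for the 3 Δ*TpKu70* libraries, squares for the 3 Δ*TP05746* libraries and a bar at each strain's mean. The strains are farthest apart for *TP00199* (GH2) and *TP02355* (GH127), and the squares lie to the right for *TP03237* and *TP01905*.

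Cutin, cellulose and mannan genes held the largest difference among members read in both strains. Cutinases hydrolyse cutin, the polyester of the plant cuticle. The cutinase gene *TP06007* (CE5) had the highest FPKM of all members in Δ*TpKu70*, at 1131 on average, and 2.77 in Δ*TP05746*. Its CPM was 602, 1086 and 2301 in Δ*TpKu70* against 1.31, 2.45 and 1.81 in Δ*TP05746*, a 716-fold lower mean (log2 fold change −9.46, SE 0.73, and −8.82 if Δ*TpKu70* replicate 3 is left out). This gene therefore made up most of the CE sum in Δ*TpKu70* and little of it in Δ*TP05746*.

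*TP02409*, of GH5, a family of endoglucanases and mannanases, had 62.1, 96.2 and 154 CPM in Δ*TpKu70* against 21.7, 10.3 and 15.8 in Δ*TP05746* (log2 fold change −2.71, SE 0.43), with shared reads. The β-mannosidase gene *TP03563* (GH2), whose product releases mannose from the ends of mannan chains, was higher, with 13.1, 5.65 and 3.59 CPM against 20.9, 28.9 and 31.0 (log2 fold change 1.84, SE 0.49). It was not past the threshold without replicate 2 of Δ*TpKu70* or 2 or 3 of Δ*TP05746* (log2 fold changes of 1.51 to 2.52 without 1 library, the last without Δ*TpKu70* replicate 1). The β-glucosidase gene *TP02423* (GH1) had 1.48, 0.893 and 0 CPM against 2.99, 2.28 and 2.54 and was not past the threshold, although it was without Δ*TpKu70* replicate 1 (log2 fold change 2.41) and with library totals (2.37). *TP04686*, an endoglucanase with a CBM46 module, and *TP04716*, a β-glucosidase, were too low to test, with mean FPKM of 0.82 and 0.137 in Δ*TP05746*. By the ratio of mean FPKM, *TP04686* was at least 2-fold higher in Δ*TP05746*, while *TP04716* hardly differed (log2 ratio −0.03).

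Fungal cell wall genes mostly ran the other way. The wall of a filamentous fungus is a mesh of β-glucan and chitin overlaid by α-glucan and mannoproteins, and hydrolases and transglycosylases loosen and cross-link it as hyphae extend, branch or autolyse. Of 12 tested genes, 8 were higher and 4 lower (median 2.50), with 8 higher and 3 lower when library totals were used and the same counts as the main ones without Δ*TpKu70* replicate 1. With TMM factors 18.2% of all genes tested were higher and 20.5% lower.

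The chitin-binding genes *TP04062* and *TP04064* showed the largest increases. *TP04062* carries CBM50, the LysM module, which binds chitin and its oligomers. Its CPM was 1.48, 2.68 and 0.653 in Δ*TpKu70* against 114, 106.995 and 71.0 in Δ*TP05746*, a 60.7-fold higher mean (log2 fold change 5.89, SE 0.45). *TP04064*, a chitinase family gene (GH18) with a CBM18 chitin-binding module, had 0.739, 1.19 and 1.31 CPM against 73.8, 101 and 68.3, a 75.2-fold higher mean (log2 fold change 6.22, SE 0.32). Both were near the detection limit in every Δ*TpKu70* library and clearly expressed in every Δ*TP05746* library. *TP00955* (CE4), annotated as a polysaccharide deacetylase, the family of chitin deacetylases, was low but higher in Δ*TP05746* (log2 fold change 2.78, SE 0.44).

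β-Glucan genes were higher as well. *TP04797* (GH132, the SUN family of β-glucan-modifying wall proteins) had 56.7, 27.7 and 17.3 CPM in Δ*TpKu70* against 499, 438 and 445 in Δ*TP05746*, a 13.6-fold higher mean (log2 fold change 3.76, SE 0.46). Its mean FPKM, without TMM factors, was the highest of all members in Δ*TP05746* (321, against 15.1 in Δ*TpKu70*). *TP05194* belongs to GH55, the exo-β-glucanases, and had 9.86, 7.74 and 5.55 CPM against 75.4, 69.2 and 64.7 (log2 fold change 3.16, SE 0.26). *TP00873*, a GH72 glucanosyltransferase, which elongates β-glucan in the wall, was higher by a log2 fold change of 2.59 (SE 0.49) and reached a mean FPKM of 214. GH16 genes *TP00921* and *TP04309*, from a family that includes wall transglycosylases, were higher by 2.42 and 1.66. Only *TP00921* of these lost its call in fits lacking 1 library, which happened without Δ*TpKu70* replicate 2 or any Δ*TP05746* replicate (log2 fold changes of 2.01 to 3.53, the last without Δ*TpKu70* replicate 1).

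Genes for α-glucan and for the recycling of chitin sugars were lower. CE9 enzymes remove the acetyl group from N-acetylglucosamine phosphate, a step in the use of chitin sugars. *TP04786* (CE9) had 5.61, 76.9 and 54.8 CPM in Δ*TpKu70* and was at 0 in Δ*TP05746*, at least 84.5-fold lower (55.8-fold with Δ*TpKu70* replicate 2 left out), with shared reads. The other CE9 gene, *TP02985*, had 24.9, 286 and 213 CPM against 6.16, 3.15 and 8.52 (log2 fold change −4.87, SE 0.94). In both genes Δ*TpKu70* replicate 1 was the lowest library of its strain and above all Δ*TP05746* libraries.

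*TP04594*, an α-glucanase family gene (GH71), had 115, 28.3 and 37.6 CPM in Δ*TpKu70* against 6.54, 3.85 and 3.81 in Δ*TP05746* (log2 fold change −3.67, SE 0.62, and −2.80 if Δ*TpKu70* replicate 1 is left out). A second GH71 gene, *TP04939*, annotated as the α-glucanase agn1, was below the filter at 3.70, 2.68 and 2.29 CPM against 0.560, 0.350 and 0.544. *TP01025*, of the chitinase family GH18, had 536, 510 and 700 CPM against 210, 275 and 374, a log2 fold change of −1.02 (SE 0.28). It was not past the threshold without replicate 3 of Δ*TpKu70* or 1 or 2 of Δ*TP05746* (log2 fold changes of −1.26 to −0.84 without 1 library), and its log2 fold change was −0.18 with library totals. With TMM factors the 2 tested GH18 genes thus differed in direction, although the decrease of *TP01025* was small and not firm. *TP04064*, the one with the chitin-binding module, was higher in Δ*TP05746* than in Δ*TpKu70*.

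**Figure D4:**
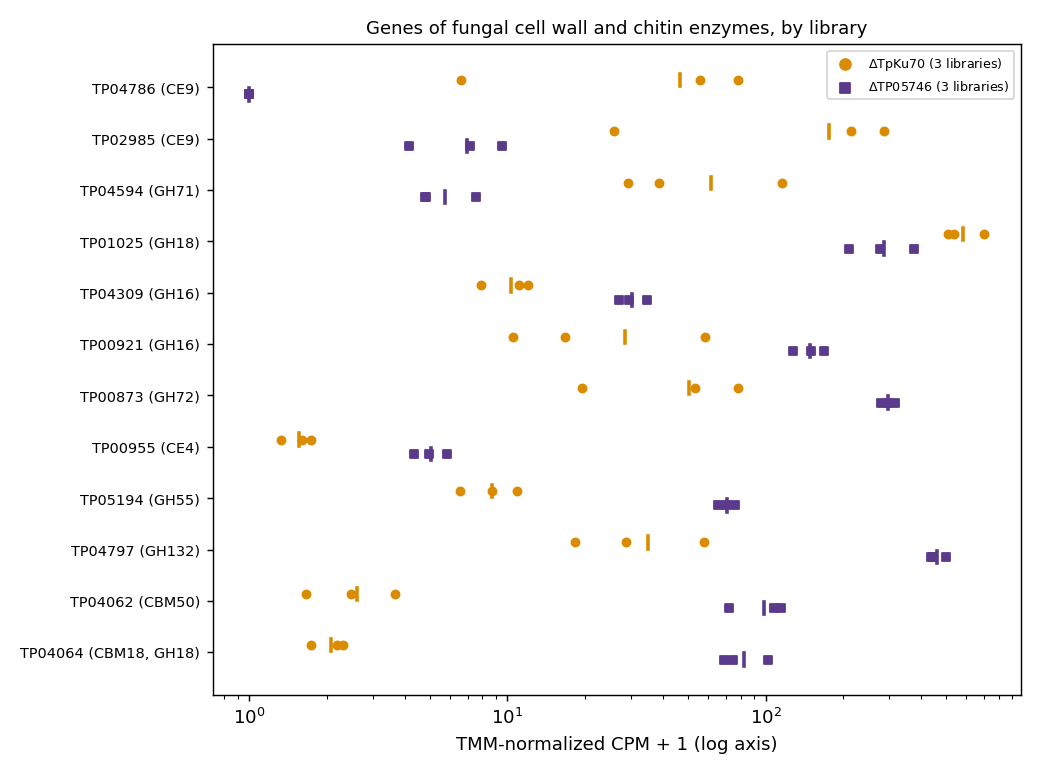
CPM + 1 (TMM scale, log axis) of the 12 tested fungal cell wall and chitin genes in each library, with circles for Δ*TpKu70*, squares for Δ*TP05746* and a bar at each strain's mean. The 4 genes at the top were lower in Δ*TP05746* and the 8 below them higher. Circles and squares overlap in none on this scale, and 62.0% of all genes tested had no overlap. By FPKM the strains did overlap in *TP01025* (244 to 312 in Δ*TpKu70*, 166 to 312 in Δ*TP05746*).

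Glycosyltransferase genes outside the storage and glycosylation groups were mostly higher. Of 12 tested, 9 were higher and 3 lower (median 1.5), with the same counts when library totals were used and when Δ*TpKu70* replicate 1 was left out. The shares over all genes tested were 18.2% higher and 20.5% lower with TMM factors. *TP00660* combines matches to GT27, GT2 and GT81 and had 62.1, 38.7 and 39.9 CPM in Δ*TpKu70* against 204, 164 and 195 in Δ*TP05746* (log2 fold change 2.0, SE 0.24). Its mean FPKM, which carries no TMM factors, was 45.0 in Δ*TpKu70* and 288 in Δ*TP05746*. *TP00370* is of GT32, known for mannosyltransferases such as yeast Och1, and had 43.9, 15.5 and 10.8 CPM against 131, 154 and 136 (log2 fold change 2.58, SE 0.51, and 3.40 if Δ*TpKu70* replicate 1 is left out). *TP00390*, of GT41, the family of O-linked N-acetylglucosamine transferases, had 17.0, 14.3 and 15.4 CPM against 60.5, 98.1 and 81.9 (log2 fold change 2.36, SE 0.24). In each of the 3 the lowest Δ*TP05746* library was above the highest Δ*TpKu70* library. The strains did not overlap in any of the 15 tested GT genes, or in 62.0% of all genes tested, counting both directions.

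GT2, which includes chitin synthases among other enzymes, contributed *TP02405*, with 0.986, 1.79 and 1.31 CPM in Δ*TpKu70* against 7.28, 6.48 and 7.07 in Δ*TP05746* (log2 fold change 2.34, SE 0.36), and *TP05966*, higher by 1.58. Increases were also measured for *TP02838* of GT1 (1.98), *TP03107* of GT41 (1.42), *TP02499*, annotated as a putatively inactive GT25 member (1.37), and *TP01896* of GT69 (1.19). *TP03107* was not past the threshold without replicate 3 of Δ*TpKu70* or 2 or 3 of Δ*TP05746* (log2 fold changes of 1.14 to 1.68 without 1 library).

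Among the lower glycosyltransferase genes, those of GT32 and GT41 had higher members in the same family. *TP05110* (GT32) had 2.46, 25.6 and 30.1 CPM in Δ*TpKu70* against 0.560, 0.70 and 0 in Δ*TP05746* (log2 fold change −5.43, SE 1.19). *TP04511* (GT41) had 13.6, 18.7 and 29.4 CPM against 1.31, 1.75 and 2.90 (log2 fold change −3.35, SE 0.47). Thus in GT32 *TP05110* was far lower and only *TP00370* was higher, while in GT41 *TP04511* was far lower beside *TP00390* and *TP03107*, which were higher. *TP05905* (GT21, the ceramide glucosyltransferases, which make glucosylceramide) was the most abundant of the lower genes here, with 229, 469 and 410 CPM against 88.9, 90.4 and 76.1 (log2 fold change −2.12, SE 0.30). Untested GT32 genes *TP04233* and *TP04447* had mean FPKM of 0.430 and 2.67 in Δ*TpKu70* against 0.0467 and 0.583 in Δ*TP05746*.

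**Figure D5:**
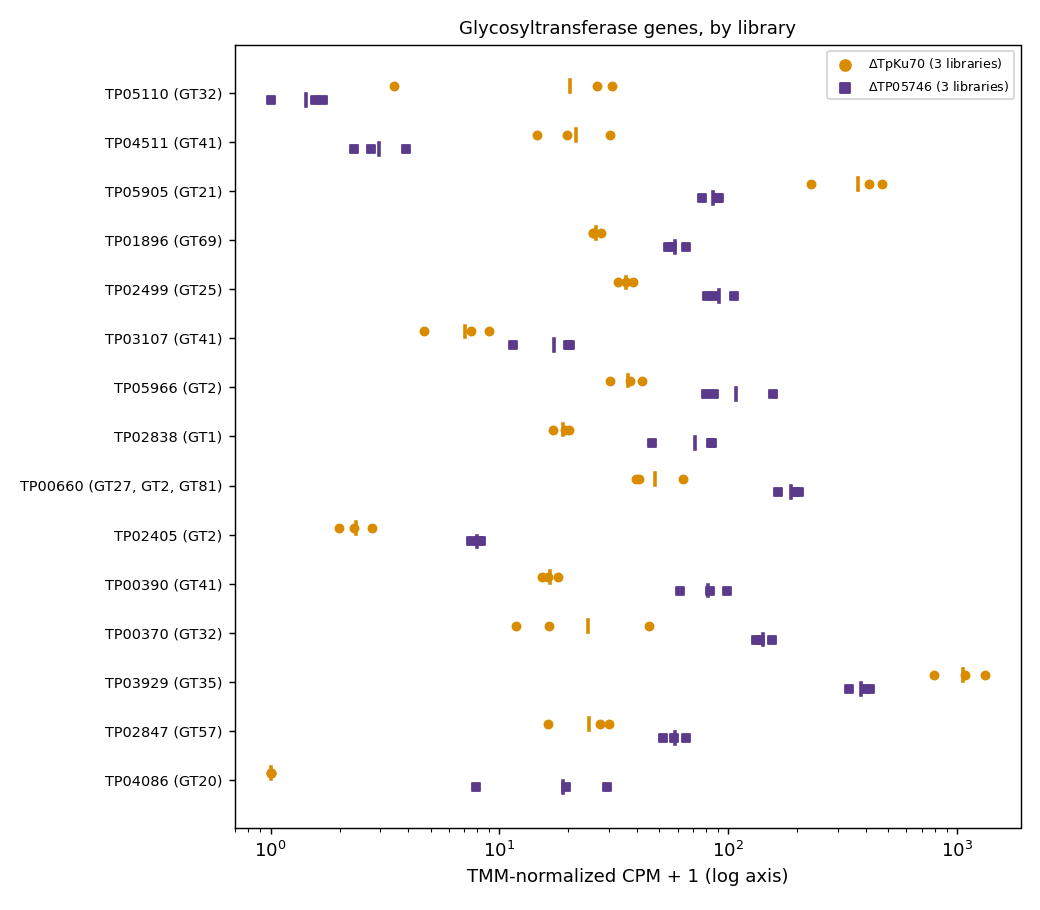
CPM + 1 (TMM scale, log axis) of the 15 tested glycosyltransferase genes in each library, with circles for Δ*TpKu70*, squares for Δ*TP05746* and a bar at each strain's mean. *TP05110*, *TP04511*, *TP05905* and *TP03929* were lower in Δ*TP05746* and the other 11 higher, and *TP03929* (GT35) has the highest CPM in both strains.

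Genes of protein glycosylation and anchoring split evenly. New N-glycans are trimmed by α-mannosidases after transfer to protein, and of 6 tested genes 3 were higher, 2 lower and 1 not past the threshold. Across all genes tested, 18.2% were higher and 20.5% lower. The GH47 α-mannosidase family genes went opposite ways: *TP04732* had 124, 57.1 and 74.5 CPM in Δ*TpKu70* against 547, 295 and 303 in Δ*TP05746* (log2 fold change 2.16, SE 0.40), whereas *TP05519* had 202, 239 and 186 against 61.6, 64.4 and 56.9 (log2 fold change −1.78, SE 0.18). *TP05519* had a log2 fold change of −0.95 with library totals, short of the threshold. Per length, the FPKM of *TP04732* was 54.1, 20.8 and 25.2 in Δ*TpKu70* beside 44.2, 43.7 and 31.7 for *TP05519*, so the pair had no fixed order there, whereas in Δ*TP05746* *TP04732* was the higher one in every library, with means of 237 and 19.3.

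*TP02847* (GT57), of the family that adds glucose to the N-glycan precursor, had 26.4, 29.2 and 15.4 CPM in Δ*TpKu70* against 64.4, 56.7 and 50.7 in Δ*TP05746* (log2 fold change 1.27, SE 0.28). *TP04293* (CE14) is annotated as the deacetylase of an early step in making glycosylphosphatidylinositol anchors, which hold proteins to the membrane and wall, and had 39.9, 31.8 and 34.6 CPM against 115, 68.5 and 89.0 (log2 fold change 1.35, SE 0.24). The α-mannosidase gene *TP03029* (GH38) had 5.17, 40.8 and 29.4 CPM against 2.80, 4.03 and 3.44 (log2 fold change −2.86, SE 0.73). Replicate 1 of Δ*TpKu70* was close to the Δ*TP05746* libraries in this gene, which was not past the threshold without Δ*TpKu70* replicate 2 or any Δ*TP05746* replicate (log2 fold changes of −3.36 to −2.31 without 1 library). In *TP02087* (GH92, another α-mannosidase family) the strains overlapped, with 84.5, 599 and 674 CPM against 122, 119 and 100. Its log2 fold change of −1.99 was not past the threshold, while without Δ*TpKu70* replicate 1 it was −2.49 and past it.

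Storage sugar genes included the glycosyltransferase gene with the highest mean FPKM in Δ*TpKu70*. Glycogen phosphorylase releases glucose phosphate from glycogen, and trehalose is made by trehalose phosphate synthase and cut by trehalase. *TP03929*, annotated as a homolog of the yeast glycogen phosphorylase Gph1 (GT35), had 788, 1083 and 1319 CPM in Δ*TpKu70* against 336, 393 and 413 in Δ*TP05746* (log2 fold change −1.48, SE 0.27), or −0.62 and not past the threshold with library totals. *TP03355*, of the α-glucosidase family GH31, had 10.6, 52.7 and 45.4 CPM against 5.23, 5.43 and 5.80 (log2 fold change −2.71, SE 0.59).

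A trehalase gene and a trehalose phosphate synthase gene were read in Δ*TP05746* alone. The trehalase gene *TP05569* (GH37) was at 0 in all Δ*TpKu70* libraries and had 2.77, 18.8 and 18.5 CPM in Δ*TP05746*, at least 15.4-fold higher. *TP04086*, a trehalose phosphate synthase gene (GT20), was also at 0 in Δ*TpKu70* and had 6.88, 28.4 and 18.6 CPM, at least 20.7-fold higher. Both had counts with decimals, meaning that reads were divided with another gene model, so a 0 can stand for reads given to the other copy. *TP05399*, a GT20 gene of the same pathway with shared reads, had 1.87 CPM in Δ*TP05746* replicate 1 and 0 elsewhere. The GH32 gene *TP03054*, from the invertase family, was below the filter, with a mean FPKM of 1.48 in Δ*TpKu70* against 0.283 in Δ*TP05746*.

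Esterase genes of CE10 were mostly lower, whereas the CE7 gene *TP02802* had a positive log2 fold change and was not past the threshold. CE10 is a broad family of carboxylesterases, lipases and related enzymes, many of which act on no sugar. Of 8 tested genes of both families, 6 were lower, 1 higher and 1 not past the threshold (median −1.75), and with library totals 3 were lower and 2 higher. For all genes tested the shares were 20.5% lower and 18.2% higher with TMM factors. *TP05716* had 21.7, 8.93 and 10.1 CPM in Δ*TpKu70* against 0.187, 0 and 0 in Δ*TP05746* (log2 fold change −7.27, SE 0.85, and −8.89 if Δ*TP05746* replicate 1 is left out). *TP05243*, annotated as an acetylhydrolase, had 16.8, 33.3 and 20.9 CPM against 2.05, 0.876 and 1.27 (log2 fold change −4.06, SE 0.47). *TP04600*, which shares reads, had 56.0, 378 and 260 CPM against 28.1, 49.1 and 30.4 (log2 fold change −2.69, SE 0.67). In *TP05716* and *TP05243* the strains were well apart, whereas in *TP04600* the lowest Δ*TpKu70* library was close to the highest Δ*TP05746* library.

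The carboxylesterase gene *TP02219* had 39.4, 39.3 and 52.6 CPM in Δ*TpKu70* against 13.4, 17.2 and 15.4 in Δ*TP05746* (log2 fold change −1.51, SE 0.22), and *TP01869* and *TP02101* fell by 1.87 and 1.64. None of these was past the threshold with library totals (log2 fold changes of −0.67, −1.09 and −0.77). The lipase gene *TP03783* was the one that rose, from 0.986, 1.19 and 0.327 CPM to 5.60, 3.85 and 6.52 (log2 fold change 2.61, SE 0.50). The CE7 gene *TP02802* had 0, 0 and 0.980 CPM against 2.24, 2.63 and 1.81, not past the threshold (log2 fold change 2.81), but past it with library totals (3.62) or without Δ*TpKu70* replicate 3 (6.43). Calls were lost without Δ*TP05746* replicate 1 or 3 for *TP04600* (log2 fold changes of −3.17 to −2.13 without 1 library), without Δ*TP05746* replicate 1 for *TP01869* (−2.17 to −1.56) and without any Δ*TP05746* replicate for *TP02101* (−1.90 to −1.28). Of the untested genes, *TP02484* was at 0 in Δ*TpKu70* and had 0, 2.13 and 3.54 CPM in Δ*TP05746* with shared reads, so the strains overlapped at 0, and *TP05339* had a mean FPKM of 1.17 against 0.0667.

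Auxiliary activity genes went both ways within a family. AA3 enzymes are flavin oxidoreductases such as glucose oxidases, aryl-alcohol oxidases and cellobiose dehydrogenases, the last of which also carry the AA8 cytochrome, and 6 members matched AA3 and AA8 together. *TP05365* had 0.493, 0.893 and 1.96 CPM in Δ*TpKu70* against 21.1, 19.1 and 25.01 in Δ*TP05746*, a 19.5-fold higher mean (log2 fold change 4.30, SE 0.49, and 4.93 if Δ*TpKu70* replicate 3 is left out). *TP04070* had 0.246, 0 and 0.653 CPM against 9.34, 4.90 and 9.24 (log2 fold change 4.63, SE 0.73, and 5.61 if Δ*TpKu70* replicate 3 is left out). These 2 were barely read in Δ*TpKu70*, whereas the next 2 of the same families were lower in Δ*TP05746*.

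*TP05864* had 74.2, 53.0 and 80.4 CPM in Δ*TpKu70* against 10.8, 14.7 and 10.1 in Δ*TP05746* (log2 fold change −2.54, SE 0.26). *TP03914* had 82.3, 5.06 and 6.21 CPM against 2.05, 1.75 and 2.72 (log2 fold change −3.83, SE 1.18). Its mean in Δ*TpKu70* was set by replicate 1, it was not past the threshold without any one of the Δ*TP05746* libraries or with library totals, and its log2 fold change ran from −4.34 to −1.37 in the fits that lacked 1 library, with the last value without Δ*TpKu70* replicate 1. *TP04002* and *TP00156* were untested, and *TP04002* had 0, 5.95 and 3.27 CPM in Δ*TpKu70* against 0 in every Δ*TP05746* library, so the strains overlapped at 0.

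AA7 holds oxidases of glucooligosaccharides and related sugars. *TP01353* (AA7) had 93.1, 312 and 256 CPM in Δ*TpKu70* against 23.2, 36.8 and 30.6 in Δ*TP05746* (log2 fold change −2.86, SE 0.47). *TP00703* (AA7) had 15.5, 559 and 751 CPM against 56.0, 59.4 and 42.4, so Δ*TpKu70* replicate 1 was below every Δ*TP05746* library while the other 2 were far above. Its log2 fold change of −3.07 (SE 1.13) was not past the threshold, and without Δ*TpKu70* replicate 1 it was −3.64 and past it. *TP03375* (AA7) was higher, with 3.70, 5.06 and 1.96 CPM against 34.7, 16.1 and 18.3 (log2 fold change 2.67, SE 0.48), and *TP03490* (AA7) was higher by 1.74.

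*TP05744* belongs to AA11, the copper-dependent monooxygenases that cleave chitin, and was higher by a log2 fold change of 1.93 (SE 0.50). The mean FPKM of *TP05744*, without TMM factors, was 1.66 in Δ*TpKu70* against 10.3 in Δ*TP05746*. Its call was lost without Δ*TP05746* replicate 1 or 2 (log2 fold changes of 1.54 to 2.24 without 1 library), and that of *TP03490* without any library but Δ*TpKu70* replicate 1 (1.36 to 2.31). Leaving out either of those Δ*TP05746* libraries left 3 AA genes higher, and leaving out Δ*TpKu70* replicate 1 left 5 lower. *TP04706*, with matches to AA4 and AA7, had 210, 265 and 341 CPM against 152, 142 and 120, a log2 fold change of −0.98 that missed the fold minimum, and −1.14 and −1.05, past it, without replicate 1 of Δ*TpKu70* or of Δ*TP05746*. The laccase family gene *TP04210* (AA1) and the quinone reductase family gene *TP04971* (AA6), both with shared reads, had log2 fold changes of 0.03 and 0.35 and overlapping libraries. Without Δ*TpKu70* replicate 3, *TP04971* had a log2 fold change of 6.04 and was past the threshold. In the other fits that lacked 1 library it ran from −0.29 to 0.51.

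Outside these groups, *TP02728* (GH109) had 225, 445 and 754 CPM in Δ*TpKu70* against 136, 116 and 136 in Δ*TP05746* (log2 fold change −1.87, SE 0.43), and it was not past the threshold without Δ*TP05746* replicate 2 (log2 fold changes of −2.22 to −1.39 without 1 library). The CBM66 gene *TP00905* had 4.68, 6.84 and 5.55 CPM against 2.61, 1.40 and 0.725, and lost its call without replicate 2 or 3 of Δ*TpKu70* or 2 or 3 of Δ*TP05746* (−2.38 to −1.49). *TP05939* was assigned to the pectate lyase family PL10 but is annotated as lanosterol synthase, an enzyme of ergosterol synthesis, so its place among carbohydrate-active enzymes is doubtful. It had 96.1, 95.8 and 63.4 CPM against 216, 220 and 233 (log2 fold change 1.39, SE 0.22).

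Some members carry neighbouring gene numbers, although no map of the genome was used and the numbers alone do not place genes beside each other. *TP00303* to *TP00306* are 4 consecutive members for plant polysaccharides: α-L-fucosidases of GH29 at both ends, with a GH39 and a GH43 gene between. *TP00303* had 3.45, 5.36 and 5.23 CPM in Δ*TpKu70* against 0.934, 1.05 and 2.17 in Δ*TP05746*, below the filter. *TP00304* had 6.65, 11.9 and 10.5 CPM against 4.11, 5.43 and 3.81. By CPM, with *TP00305* and *TP00306* given above, all 4 had every Δ*TP05746* library below every Δ*TpKu70* library. Of all genes tested, 62.0% had no overlap, counting both directions. By FPKM *TP00304* did overlap (3.23, 4.81 and 3.93 against 2.76, 3.92 and 2.67). Its log2 fold change with library totals was −0.26, not past the threshold.

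*TP03027* (GH105) and *TP03028*, which is not a member, were both matched to the same protein of *T. cellulolyticus* in the study's annotation, and *TP03029* and *TP03030* follow. *TP03027* had 0.986, 3.57 and 3.27 CPM against 0.560, 0.70 and 0, and was not tested. The chitin-binding pair *TP04062* and *TP04064* is separated by 1 number and moved by similar amounts. *TP05191* and *TP05194* lie 3 numbers apart and went opposite ways, and *TP05716* and *TP05718* lie 2 apart and were both lower, as were *TP04933* and *TP04936*.

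According to its methods, the study set a 2-fold minimum on the ratio of FPKM. By the deposited values, 17 of the members were within 2-fold, and why they are on the list was not tested. By the ratio of mean FPKM, 39 of the 101 members with values were at least 2-fold higher in Δ*TP05746* and 45 at least 2-fold lower. The members closest to no difference on that scale were *TP04716*, *TP04706*, *TP00283* and *TP01025*, with log2 ratios of −0.03, −0.22, −0.26 and −0.28. CAZy genes outside the list were not analysed here, so no values just outside the threshold can be given.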

How the data were processed

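Total RNA of mycelium from 3 libraries of Δ*TpKu70* and 3 of Δ*TP05746* had been sequenced on an Illumina HiSeq system, and libraries were grouped by their labels. The authors' deposited tables give RSEM expected counts, not scaled, and FPKM values, which the authors' run of RSEM scaled for length and depth. Tools listed in the submitters' notes are RSEM 1.2.12, DESeq2, Bowtie2 2.1.0 and BWA 0.7.10-r789. A gene not listed for a library was read as 0. Counts with decimals (2326 of 11632 genes) hold reads shared between gene models.

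Rounded expected counts of the 8522 genes that reached an FPKM of 1 in 3 or more of the 6 libraries were scaled with TMM factors (0.667 to 0.877 in Δ*TpKu70*, 1.31 to 1.37 in Δ*TP05746*) and tested, two-sided, with edgeR's quasi-likelihood test and Benjamini-Hochberg adjustment, at an adjusted p of 0.05 and an absolute log2 fold change of 1. Each standard error (SE) was obtained by dividing the size of the log2 fold change by the root of the test's F value, which is rough near 0. The script was tested on simulated data. Tools were R 4.3.3, edgeR 4.0.16, limma 3.58.1, DESeq2 1.42.0, Python 3.11.15, pandas 2.3.3 and matplotlib 3.10.9.

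The genes, the 10 role groups (set from CAZy family and annotation) and the tests were chosen with earlier results of these data known. Values in every library are given for up to 3 members per role group with the largest increase and 3 with the largest decrease, the 2 most abundant, those with numbers within 3 of another member, and those at 0 in 1 strain, 68 genes in all. Fold and p columns of the study's gene list were not used. Alternatives were DESeq2, median-ratio factors, library totals, limma on log2(FPKM + 1) or log2(FPKM + 0.1), no filter or an FPKM of 5, the ratio of mean FPKM with unadjusted p, genes without decimals only, a test against the fold minimum, the replicate number as a block, and each library left out. No gene ID matched the reference table, which is of another strain, so coordinates and sequences are not used here.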

Additional observations from a re-analysis of the deposited data

How the results depend on the processing

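Over all genes, the counts called depended most on the scaling between libraries and on the fold minimum. Among members, 75 were past the threshold in the main fit. That number was 61 with library totals, 48 against the fold minimum and 58 without Δ*TP05746* replicate 3, so single libraries mattered as well. With library totals, 3290 of all genes tested were higher and 1059 lower, 27 members were lower, and 14 GH genes were lower. With limma on log2(FPKM + 1), 3123 of all genes were higher and 1069 lower, and 25 members, 12 GH genes and 6 CE genes were lower. With limma on log2(FPKM + 0.1) these were 3232, 1107, 26, 13 and 6. The test against the fold minimum called 741 of all genes higher and 1136 lower, 21 members higher and 27 lower, 14 GH genes lower, 7 GT genes higher and 3 AA genes higher. A filter at an FPKM of 5 kept only 53 members in the test, of which 25 were higher and 27 lower. It left 10 GT genes tested, 2 of them lower, and 7 CE genes, 5 of them lower. Of the 32 members that were higher, all 32 kept their call with library totals, and of the 43 that were lower 27 did. Over the fits that left out 1 library, all genes ranged from 1130 to 2137 higher and 1434 to 2011 lower, members from 26 to 33 and 31 to 46, GH from 8 to 12 and 16 to 25, GT from 10 to 11 and 4 throughout, CE from 3 to 4 and 7 to 10, and AA from 3 to 5 and 2 to 5. The ratio of mean FPKM gave no value for *TP04086*, *TP04786* and *TP05569*, listed at 0 in 1 strain. In all 6 fits that lacked 1 library, 26 members stayed higher and 28 stayed lower.

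The replicate numbers were not shown to pair the samples: deviations of same-numbered libraries from their strain's mean correlated at −0.0784, −0.0379 and 0.0115. With the replicate number as a block, 1380 of all genes were higher and 1512 lower, with 30 and 37 members, 9 and 21 GH, 11 and 4 GT, 3 and 9 CE and 5 and 2 AA genes. Limits are the 3 libraries per strain, the position of Δ*TpKu70* replicate 1, members with few counts, and reads shared between gene models in 15 of 101 members.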
